A study of Mus musculus with 6 samples.

Results

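The genes described here are 10 direct transcriptional targets of p53, followed in BV2, a microglial line immortalised from C57BL/6 mice, with and without human full-length apolipoprotein E4 (FL-ApoE4). They were chosen by name as canonical p53 targets, without genes listed as shared with the stress factor ATF4. All 10 are among the 40202 genes of the deposited table. The list holds Cdkn1a, Mdm2 and Ccng1, which act on the cell cycle and on p53 itself, Bbc3, Bax, Aen and Phlda3, which act in cell death, and Sesn1, Zmat3 and Trp53inp1, which act in stress responses. Total RNA was sequenced from 3 untreated control samples and from 3 samples that received FL-ApoE4 protein (25 µg/ml, 5 h). No vehicle is named for the controls, and nothing says whether replicates were independent cultures, and the p-values therefore describe the spread among these samples, part of which may be technical. BV2 is a single immortalised line, which all 6 samples share.

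p53, encoded by Trp53 in the mouse, is a transcription factor that is kept low by the ubiquitin ligase MDM2 and accumulates after DNA damage and other stress. It binds pairs of a short decamer in DNA and raises genes that stop the cell cycle, repair DNA or start apoptosis, and Mdm2 is one of these genes, which closes a negative feedback loop. Many of its targets also answer to other factors, so the level of a single target does not report on p53 alone. In myeloid cells Cdkn1a also follows growth factor and inflammatory signals.

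The promoters of the members are shown first, because the decamer that p53 binds can be read in several of them. RefSeq promoter windows of build GRCm38.p6, each reaching from 250 bases before to 50 bases after an annotated start, were found for 8 of the 10 genes (13 windows), and not for Zmat3 and Trp53inp1. The decamer searched was the p53 consensus of 3 purines, C, 2 bases that are A or T, G and 3 pyrimidines, which reads the same on both strands. It was present in 7 of the 13 windows, belonging to 6 of the 8 genes (both overlapping windows of Aen share 1 decamer), against 8.36% of all 32851 windows of this length. A pair of decamers without a spacer, with at most 2 mismatches outside the C and G of each, was present in a window of Cdkn1a and in that of Ccng1, against 0.326% of all windows. The stretches before the start are printed 5′ to 3′ for Cdkn1a (at the upstream of its annotated starts, 2790 bases before the other), Mdm2, Ccng1 and Sesn1 as examples of different behaviour with FL-ApoE4. Capitals mark the decamer or the pair.
Cdkn1a (chr17:29090729-29090978, strand +): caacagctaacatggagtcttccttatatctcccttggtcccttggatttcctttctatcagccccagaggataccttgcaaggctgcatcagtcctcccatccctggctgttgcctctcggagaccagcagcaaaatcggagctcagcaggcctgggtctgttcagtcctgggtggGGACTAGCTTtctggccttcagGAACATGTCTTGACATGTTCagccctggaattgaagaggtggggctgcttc
Mdm2 (chr10:117710759-117711008, strand -): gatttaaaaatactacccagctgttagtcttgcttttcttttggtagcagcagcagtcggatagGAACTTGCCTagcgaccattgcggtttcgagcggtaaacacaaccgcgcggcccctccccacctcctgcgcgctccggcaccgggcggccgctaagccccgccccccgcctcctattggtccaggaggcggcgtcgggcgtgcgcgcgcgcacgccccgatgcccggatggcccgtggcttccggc
Ccng1 (chr11:40755287-40755536, strand -): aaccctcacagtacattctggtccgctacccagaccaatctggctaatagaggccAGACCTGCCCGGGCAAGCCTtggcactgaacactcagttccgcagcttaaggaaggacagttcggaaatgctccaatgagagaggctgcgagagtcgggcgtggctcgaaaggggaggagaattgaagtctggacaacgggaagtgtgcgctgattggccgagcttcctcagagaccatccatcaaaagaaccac
Sesn1, second annotated start (chr10:41887189-41887438, strand +): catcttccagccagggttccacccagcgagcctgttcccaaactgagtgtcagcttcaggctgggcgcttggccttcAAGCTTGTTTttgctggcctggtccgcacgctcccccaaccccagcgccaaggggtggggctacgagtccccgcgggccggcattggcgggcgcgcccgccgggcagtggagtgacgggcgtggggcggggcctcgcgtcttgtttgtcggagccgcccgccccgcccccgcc

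The Cdkn1a window holds a lone decamer that begins 73 bases before the start and a pair that begins 51 bases before it, with 1 mismatch to the consensus. The Ccng1 pair begins 195 bases before the start, also with 1 mismatch. Mdm2 has a single decamer 186 bases before its start and Sesn1 a single one 173 bases before its downstream start. Bax (201 bases before) and Aen (121 bases before the downstream of its starts) also hold one. The windows of Bbc3 and Phlda3, the downstream window of Cdkn1a and the upstream window of Sesn1 hold none, which says only that these letters are not in the windows searched. A match is a description of sequence, and binding was not measured in this study. DNA outside the windows, introns included, was not searched for any gene, so a decamer shown here need not be the site that p53 uses.

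The libraries held 45700128 to 54965393 reads assigned to genes, and values are normalised reads, that is, reads scaled by the authors to a common depth. Control replicate 1 stood apart: its median absolute log2 difference from the other controls was 0.161 and 0.174 over genes, where control replicates 2 and 3 differed by 0.0694. FL-ApoE4 replicate 1 differed from the other treated libraries by 0.130 and 0.132, and those differed by 0.0666. Each member is therefore also given without control replicate 1, in a comparison that then rests on 2 controls that resemble each other closely, so that its p-values may be too small. Of 12 microglia and macrophage markers, 11 had a mean of at least 10 normalised reads, with Csf1r, the CSF1 receptor, at 45849 to 57740, whereas P2ry12 was listed at 0 throughout. Their sum was 192076 to 195673 in controls and 213722 to 221140 with FL-ApoE4, and its part in the results was not tested. Summed markers of astrocytes, neurons, endothelial cells and fibroblasts stayed below 100 normalised reads in every library. Those of oligodendrocytes summed to between 1151 and 1297, mostly from Mbp, and Mog and Mag were at or near 0.

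With FL-ApoE4 the p53 targets did not move as one group. Cdkn1a, the gene of the cell cycle inhibitor p21, had the largest difference and was lower, Mdm2 and Bbc3 had smaller differences in the same direction, and Sesn1 was higher in every treated library. The means of the other 6 genes differed by no more than 10% between the groups. None of the 10 passed the test with all 6 libraries (limma on log2(value + 1), adjusted p under 0.05 over 14079 genes), and neither did any other gene, so that the background is 0% of genes called. At an unadjusted p under 0.05 limma gave 1850 genes (13.1% of those tested; 6.81% higher and 6.33% lower with FL-ApoE4), and 1 of the 10 members, Cdkn1a, which was lower. On the reads recovered from the values, edgeR called 0 genes (1844 passed without adjustment) and DESeq2 called 390 (2.77%), with 0 members among them. The median log2 fold change was -0.02 over the 10 members and 0.0011 over all tested genes, with 4 members positive and 6 negative.

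**Figure D1:**
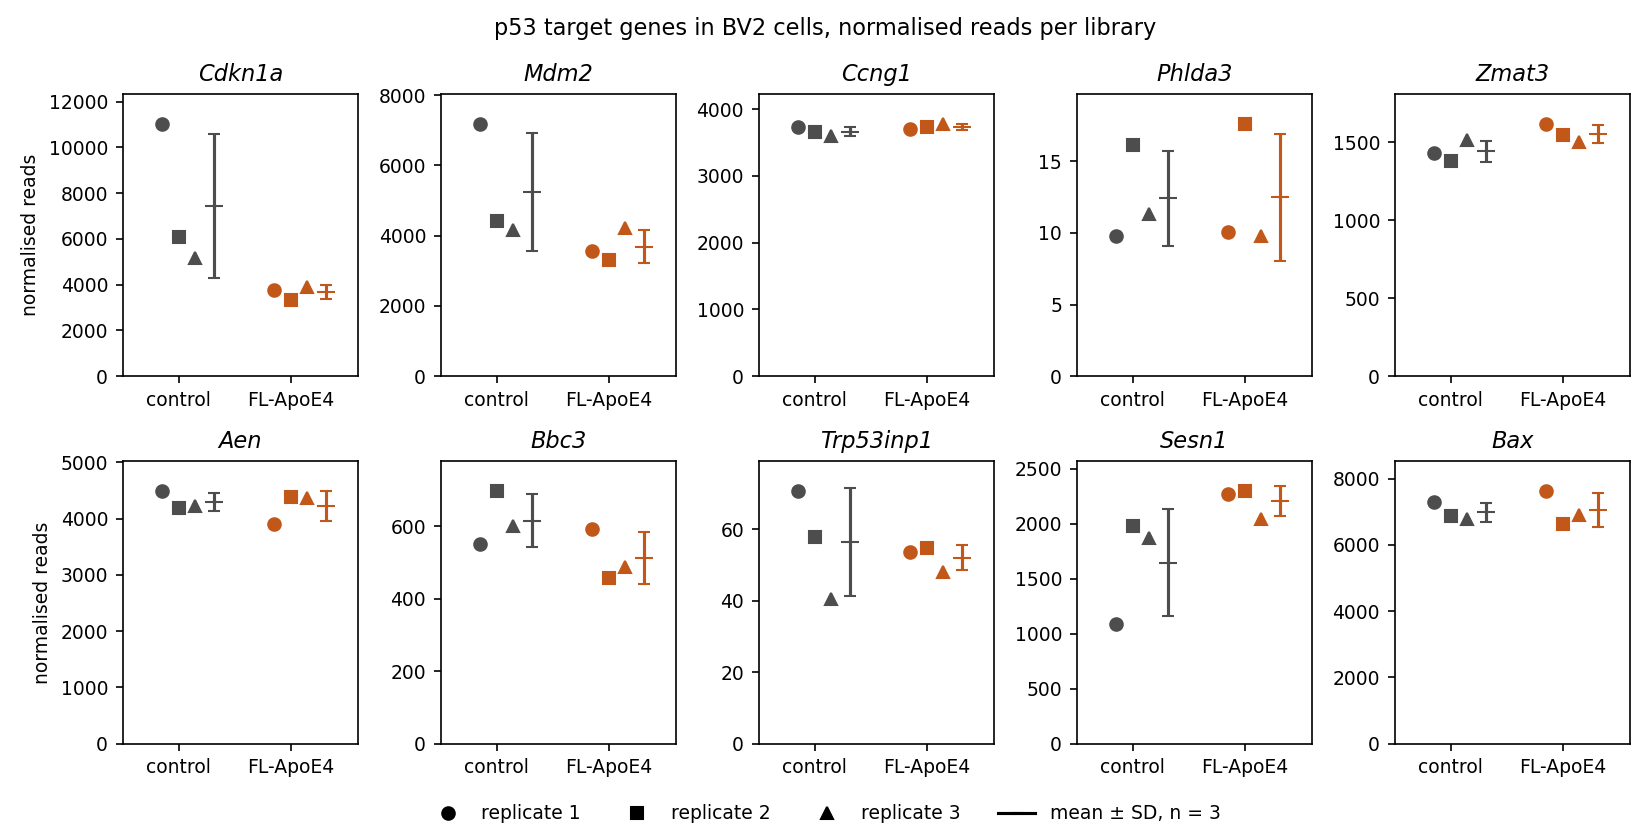
Normalised reads of each p53 target gene (vertical axes, from 0, a scale of its own per gene) in the 3 control and 3 FL-ApoE4 libraries; symbols mark the replicate and the bars give mean ± SD (n = 3). All 3 Cdkn1a values with FL-ApoE4, 3335 to 3917, lie below the lowest control, 5182, all 3 Sesn1 values with FL-ApoE4 lie above the highest control, and the other 8 genes overlap.

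Among the genes of cell cycle control, Cdkn1a had 11034, 6078 and 5182 normalised reads in the controls, in the order of their replicate numbers, which holds for all values below, and 3769, 3335 and 3917 with FL-ApoE4. The groups did not overlap, and control replicate 1 was far above the other 5 libraries. The control mean of 7431 ± 3152 was 2.02 times the treated mean of 3674 ± 303 (mean ± SD, n = 3 each). The log2 fold change was -0.94 ± 0.25 (SE), at a limma adjusted p of 0.205 and an exact two-sided permutation p of 0.1, the smallest that 3 against 3 libraries allow. Of all tested genes, 10.9% were likewise lower with FL-ApoE4 in every library than in any control, and 11.1% higher (21.9% in both directions), so that 1 member of 10 in each direction is near the background.

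Without control replicate 1, Cdkn1a fell by 0.61 ± 0.09 on the log2 scale (limma adjusted p = 0.00655), and the mean of control replicates 2 and 3 was 1.53 times the treated mean. Cdkn1a was then the only member called of 10, where 651 of all genes (4.62%) were called, 238 of them lower (1.69%) and 413 higher (2.93%). The edgeR quasi-likelihood test on the same 5 libraries gave Cdkn1a -0.61 with an adjusted p of 0.00572, where it called 1.9% of genes lower and 3.01% higher. When each of the other 5 libraries was left out in turn, limma gave log2 fold changes from -1.16 to -0.87, with adjusted p from 0.218 to 0.605. In bulk RNA, fewer cells that express a gene and less of its RNA per cell cannot be told apart.

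Mdm2, which encodes the ligase that marks p53 for destruction, was at 7187, 4429 and 4150 normalised reads in the controls and at 3554, 3298 and 4210 with FL-ApoE4. FL-ApoE4 replicate 3 was above control replicate 3, so the groups overlapped. The means were 5255 ± 1679 and 3687 ± 471, and the log2 fold change -0.47 ± 0.20 (limma adjusted p = 0.381). Without control replicate 1 the value was -0.23 ± 0.09 (adjusted p = 0.240), and the mean of the remaining controls was 1.16 times the treated mean.

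Ccng1, the gene of cyclin G1, a protein that acts back on MDM2 and p53, was the steadiest member. Its values were 3730, 3655 and 3596 in the controls and 3696, 3726 and 3781 with FL-ApoE4. The groups overlapped, and the coefficient of variation was 1.85% in controls and 1.16% with FL-ApoE4. The log2 fold change was 0.03 ± 0.05 (95% interval -0.08 to 0.14). Cdkn1a and Ccng1, the pair of genes with paired decamers in the windows printed above, had the widest and the narrowest spread over controls in percent, 42.4% and 1.85%. The Cdkn1a spread includes control replicate 1, at 11034 against 6078 and 5182 in the other controls. A relation between the decamers and the spread was not tested.

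Among the genes of cell death, Bbc3, which encodes the BH3-only protein PUMA, had 551, 696 and 599 normalised reads in the controls and 593, 456 and 486 with FL-ApoE4. FL-ApoE4 replicate 1 lay within the range of the controls and the other treated libraries below it. The log2 fold change was -0.27 ± 0.13 (limma adjusted p = 0.437), and -0.34 ± 0.12 without control replicate 1 (adjusted p = 0.165). Bax, the pore-forming protein of the mitochondrial outer membrane that PUMA helps to activate, was at 7306, 6872 and 6779 in controls and at 7620, 6644 and 6910 with FL-ApoE4. Replicate 1 was the highest library of each group, and the log2 fold change was 0.01 ± 0.06 (95% interval -0.14 to 0.16).

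Aen, an apoptosis-enhancing nuclease, was at 4486, 4189 and 4229 normalised reads in controls and at 3908, 4378 and 4373 with FL-ApoE4. Its lowest library was FL-ApoE4 replicate 1 and the groups overlapped, with a log2 fold change of -0.03 ± 0.06 (95% interval -0.18 to 0.12). Phlda3, a pleckstrin-homology protein that restrains AKT, was close to the floor of detection, at 9.77, 16.1 and 11.3 in controls and 10.0, 17.6 and 9.79 with FL-ApoE4. These values stand for 9 to 19 reads per library, and the 95% interval of its log2 fold change, -0.80 to 0.78, spans differences as large as that of Cdkn1a without control replicate 1, so that a change of that size was not detectable at this depth.

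Among the stress genes, Sesn1, which encodes sestrin 1, an inhibitor of mTORC1, was the only member higher in every treated library than in any control. It was at 1088, 1975 and 1871 normalised reads in the controls and at 2267, 2294 and 2046 with FL-ApoE4. Control replicate 1 was far below the other 5 libraries, the reverse of its place for Cdkn1a and Mdm2. The means were 1645 ± 485 and 2202 ± 136, and the log2 fold change 0.47 ± 0.21 (limma adjusted p = 0.407, exact two-sided permutation p = 0.1). Without control replicate 1 it was 0.19 ± 0.07 (adjusted p = 0.158).

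Zmat3, a zinc-finger RNA-binding protein, was at 1431, 1376 and 1512 normalised reads in controls and 1618, 1543 and 1503 with FL-ApoE4. Control replicate 3 lay above FL-ApoE4 replicate 3, and the log2 fold change was 0.11 ± 0.06 (95% interval -0.04 to 0.26). Trp53inp1, a nuclear protein that p53 induces and that in turn promotes p53 activity, was low, at 70.6, 57.9 and 40.5 in controls and 53.5, 54.7 and 48.0 with FL-ApoE4. Controls spanned the treated values on both sides. Its log2 fold change was -0.08 ± 0.22, and 0.10 ± 0.21 without control replicate 1.

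**Figure D2:**
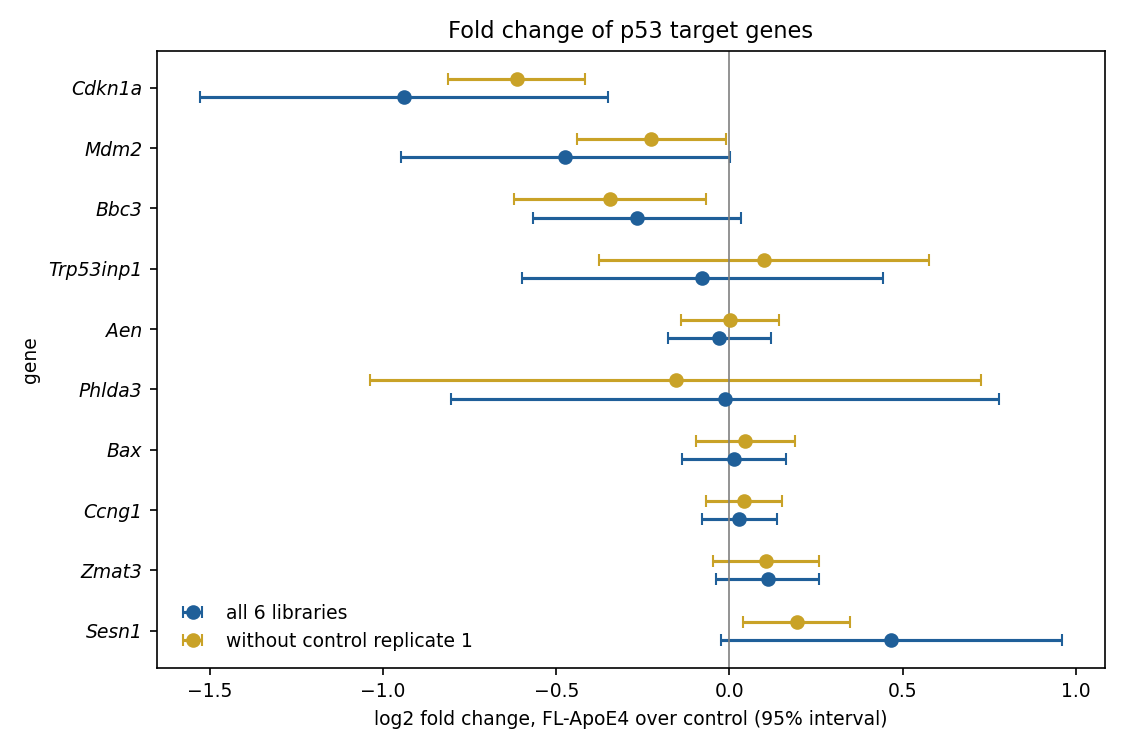
Log2 fold change of each member, FL-ApoE4 over control, with its 95% interval from limma, for all 6 libraries (blue) and without control replicate 1 (yellow). Cdkn1a moves from -0.94 to -0.61 and stays below 0 with both, and Sesn1 moves from 0.47 to 0.19. The intervals of Ccng1, Bax, Aen and Zmat3 are narrow and include 0 with both. Those of Mdm2 (-0.44 to -0.01), Bbc3 (-0.62 to -0.07) and Sesn1 (0.04 to 0.35) exclude 0 only without control replicate 1. Intervals are not adjusted for the number of genes, and the limma adjusted p there were 0.240, 0.165 and 0.158.

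Control replicate 1 had the most extreme control value for 9 of the 10 members, the highest for 6 and the lowest for 3. This was near the background, since it was also the highest control for 5756 and the lowest for 5981 of the 14079 tested genes. On the log2 scale it differed from the mean of control replicates 2 and 3 by 0.98 for Cdkn1a, 0.75 for Mdm2 and 0.53 for Trp53inp1, and by -0.82 for Sesn1. For Ccng1, Bax, Aen and Zmat3 the difference was 0.04, 0.10, 0.09 and -0.01. Over all 14079 tested genes the median of this difference was -0.0032 and 15.3% of genes exceeded 0.5 in either direction, against 4 of the 10 members. The 3 members with the largest differences between the groups were thus also those in which control replicate 1 stood farthest out, and its part in those results is given above by the values without it.

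Compared per kilobase of exon, the members differed widely in the controls. Lengths were taken from GENCODE M21 models of GRCm38, and levels are mean normalised reads per kilobase. Bax led with 4432, followed by Cdkn1a with 2092, Ccng1 with 1042, Mdm2 with 1034, Aen with 741, Sesn1 with 413, Bbc3 with 290 and Zmat3 with 126. Trp53inp1 and Phlda3 were at 8.70 and 7.96. Among neighbours in this order the control libraries overlapped for Ccng1 and Mdm2, for Sesn1 and Bbc3, and for Trp53inp1 and Phlda3, and for no other pair. With FL-ApoE4 the level of Cdkn1a was 1034, and its libraries, at 939 to 1103, overlapped those of Ccng1, at 1052 to 1077.

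**Figure D3:**
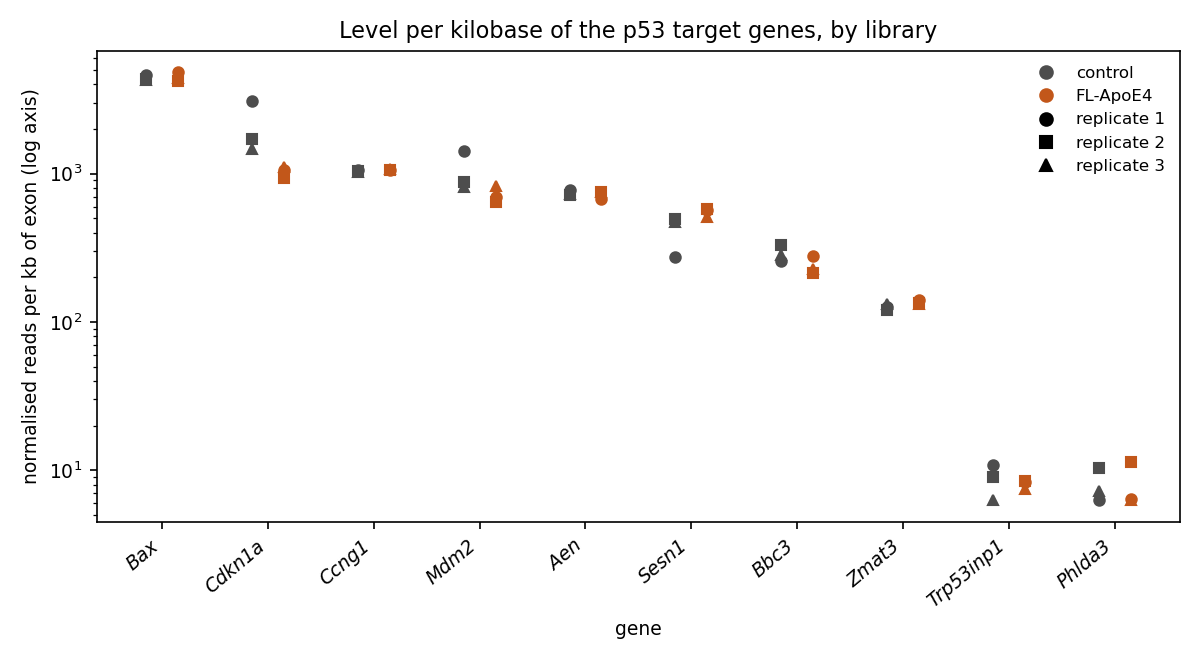
Normalised reads per kilobase of exon (vertical log axis) of the 10 members in each control (grey) and FL-ApoE4 (orange) library, ordered by the control mean; symbols mark the replicate. Bax is highest, at 4301 to 4636 in controls, Trp53inp1 and Phlda3 lie near 10, and the control values of Cdkn1a are spread widest among the genes above 100.

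Genes that set the amount and activity of p53 were looked at next, in a list of 19 regulators of which 17 had a mean of at least 10 normalised reads. By limma 0 of the 17 were called with all 6 libraries and 0 without control replicate 1. Their log2 fold changes lay between -0.19 and 0.12, with a median of -0.0052. Trp53 itself was well expressed, at 17066, 14698 and 15145 normalised reads in controls and 16223, 15074 and 15482 with FL-ApoE4, a log2 fold change of -0.0016 ± 0.07. Its groups overlapped, as did those of Mdm4, the MDM2 relative that blocks p53 activity (-0.13 ± 0.08), and of Cdkn2a, whose ARF product inhibits MDM2 (-0.07 ± 0.07).

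Of the regulators with the lowest p, Chek1, a kinase of the replication checkpoint, had a log2 fold change of -0.17 ± 0.06, Sirt1, a deacetylase that acts on p53, -0.19 ± 0.06, and Usp7, a deubiquitinase of MDM2 and p53, -0.09 ± 0.04. All 3 were lower in every treated library than in any control and missed the threshold, at limma adjusted p of 0.257, 0.262 and 0.457. They were the only 3 of the 17 tested regulators without overlap, where 10.9% of all tested genes were lower in this way. The p53 relatives Trp63 and Trp73 were below the minimum mean of 10.

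The targets that p53 shares with ATF4 or with its partner CHOP, which the choice of members left aside, mostly had larger differences. All 6 had a negative log2 fold change, with a median of -1.10. Of these, 5 were lower in every treated library than in any control, as were 10.9% of all tested genes. Pmaip1 and Tnfrsf10b, named after their values were seen, had only -0.18 and -0.06. Tnfrsf10b was near the floor, at 3.79 to 18.8 normalised reads, and had 0.25 without control replicate 1. None of the 6 was called by limma with all 6 libraries. Without control replicate 1, 4 were called lower, where 1.69% of all tested genes were. The authors' deposited table also called 4 of the 5 that it gave an adjusted p, all lower, and 0 of the 9 members that it gave one, in a table where 2.85% of 12897 genes were called. There Cdkn1a had a log2 fold change of -1.02 ± 0.36 (SE) and an adjusted p of 0.103.

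Sesn2, a paralog of Sesn1, was at 2428, 3313 and 3091 normalised reads in controls and 1361, 1353 and 1812 with FL-ApoE4. It thus lay on the lower side where Sesn1 lay on the higher, and its log2 fold change was -0.97 ± 0.15 (limma adjusted p = 0.105). In the comparison lacking control replicate 1, Sesn2 fell by 1.10 (adjusted p = 0.00226). Ddit4, an inhibitor of mTORC1, and Gdf15, a secreted stress cytokine, had values of -1.38 ± 0.26 and -1.74 ± 0.37 with all 6 libraries (adjusted p = 0.125 and 0.155). They fell by 1.66 and 1.27 without control replicate 1 (adjusted p = 0.00210 and 0.00320). Gadd45a, a growth arrest gene named after its values were seen, was the other member of this list called there (-0.89, adjusted p = 0.00963); an antisense gene overlaps its exons and the strand setting of the counting is not given.

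**Figure D4:**
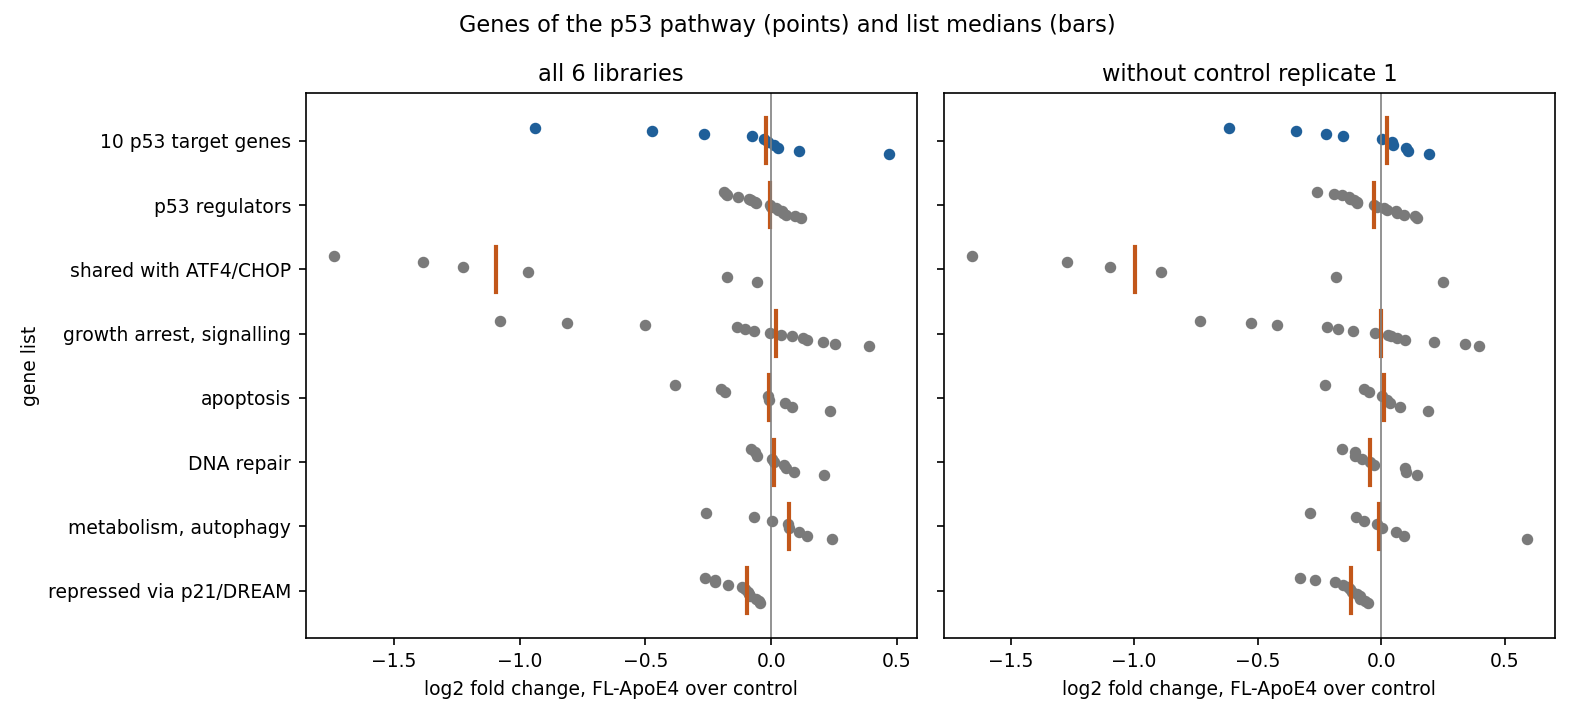
Log2 fold change, FL-ApoE4 over control (horizontal axes), of each tested gene (points; vertical offsets only separate them) in the 10 p53 targets (blue) and in 7 other lists of the pathway (grey), with list medians as orange bars, for all 6 libraries (left) and without control replicate 1 (right). The targets shared with ATF4 or CHOP have a median of -1.10 on the left, and every other list has a median between -0.10 and 0.07.

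Further p53 targets of growth arrest and signalling numbered 17, of which 14 were tested. With all 6 libraries limma and edgeR called 0 of them. An unadjusted limma p under 0.05 was reached by 6, 4 lower and 2 higher, where 6.33% and 6.81% of all tested genes did so. DESeq2 called 2, Plk3 and Btg2, both lower, where it called 2.77% of all tested genes. The median log2 fold change was 0.02, and 7 were positive and 7 negative. Without control replicate 1, limma called 3 of the 14 lower and 1 higher, where it called 1.69% and 2.93% of all tested genes. Plk2, a polo-like kinase, was at 17572, 9225 and 8023 normalised reads in controls and 4958, 4567 and 6107 with FL-ApoE4, with control replicate 1 again far above the rest. The log2 fold change was -1.08 ± 0.27 by limma, at an adjusted p of 0.196, and without control replicate 1 Plk2 fell by 0.73 (adjusted p = 0.00963). Plk3, a related kinase, and Btg2, an antiproliferative gene, had -0.50 ± 0.10 and -0.81 ± 0.23 (adjusted p = 0.130 and 0.223), and without control replicate 1 they fell by 0.42 and 0.53 (adjusted p = 0.0256 and 0.0299). The gene called higher there was Cd82, a tetraspanin named after its values were seen, with 0.39 (adjusted p = 0.00346). An exon of Plk3 overlaps a gene on the other strand.

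Targets in apoptosis other than the members (8 of 10 tested) had a median of -0.0098. With all 6 libraries limma, edgeR and DESeq2 called 0 (2 had an unadjusted limma p under 0.05, as had 13.1% of all tested genes). Without control replicate 1 limma and edgeR called 0. DESeq2 called 1 there, Tnfrsf1a, and 959 of all 14079 tested genes. Tnfrsf1a, the main TNF receptor, was higher in every treated library, at 4083 to 4543 normalised reads in controls and 4983 to 5274 with FL-ApoE4, or 0.24 ± 0.06 in log2 fold change (limma adjusted p = 0.190). Apaf1, the core of the apoptosome, was lower in every treated library (-0.20 ± 0.07, adjusted p = 0.282), and Bcl2l11, the BH3-only protein BIM, had -0.18 ± 0.10. Of the 8 tested, 1 was thus higher and 1 lower without overlap, where 11.1% and 10.9% of all tested genes were. Casp1 was listed at 0 in all libraries.

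The DNA repair targets (9 of 9 tested) had log2 fold changes between -0.08 and 0.21, groups that overlapped for all 9, and 0 calls by limma in either comparison, with 0 at an unadjusted p under 0.05 over all libraries. Those of lowest p were Polk (0.21 ± 0.11) and Polh (-0.06 ± 0.06), which encode polymerases that copy damaged DNA, and Pcna, the sliding clamp of replication (-0.08 ± 0.06). In metabolism and autophagy 8 of 9 targets were tested, and limma, edgeR and DESeq2 called 0 with all 6 libraries. An unadjusted limma p under 0.05 was reached by 1, and by 13.1% of all tested genes. Ulk1, a kinase that starts autophagy, had -0.26 ± 0.07 (limma adjusted p = 0.198) over all libraries and fell by 0.29 in the comparison lacking control replicate 1 (adjusted p = 0.0486). Ulk2, its paralog, had 0.14 ± 0.09, and Tigar, a phosphatase that lowers glycolytic flux, 0.07 ± 0.05. Dram1, a lysosomal autophagy gene named after its values were seen, was called higher without control replicate 1 (0.59, adjusted p = 0.0109) and had 0.24 ± 0.27 with all libraries. Limma thus called 1 of the 8 lower and 1 higher without control replicate 1, where it called 1.69% and 2.93% of all tested genes.

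Genes that p21 is known to hold down through the RB family and the DREAM complex had log2 fold changes below 0 in 12 of 12, against 6994 of all 14079 tested genes. The 12 genes were read in the same 6 libraries and are not independent observations, so their shared sign was not tested. The values were small, from -0.26 to -0.05 with a median of -0.10, and 0 were called by limma with or without control replicate 1. DESeq2 with all 6 libraries called 1, Ccnb1 (adjusted p = 0.0419), where it called 2.77% of all tested genes. The authors' deposited statistics also called only Ccnb1 (adjusted p = 0.0486). Ccnb1, a cyclin of mitotic entry, had values of 8981, 8054 and 8519 in controls and 7323, 7096 and 7430 with FL-ApoE4 (-0.22 ± 0.05, adjusted p = 0.189). Cdc25c, the phosphatase that activates its kinase partner, had -0.26 ± 0.06 and Rrm2, a subunit of ribonucleotide reductase, -0.17 ± 0.05, and neither gene's groups overlapped. In this list 5 of 12 genes, these among them, were lower in every treated library than in any control, as were 10.9% of all tested genes.

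The genes whose pattern over the 6 libraries was most like that of 3 members were found by Pearson's r of log2(value + 1) among 11663 other genes with a mean of at least 50. For Cdkn1a these were Cdc42ep4, Rad17 and Mafk, each with r = 0.997, and 280 genes exceeded 0.95. For Mdm2 they were Nudcd1, Tmem39a and Csrnp1 (r = 0.998 each), with 236 genes over 0.95. For Ccng1 they were Ccdc126 (r = 0.984) and the predicted genes Gm35612 (0.979) and Gm35782 (0.977), with 15 genes over 0.95. The correlations rest on 6 points that share the outlying control replicate 1 and the division into groups, and are given as a description.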

How the data were processed

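Total RNA of 6 BV2 samples was sequenced from directional libraries, per the labels' protocols. The submitters' processing notes name HISAT2 2.2.1, DESeq2 1.30.1, FastQC 0.11.8 and HTSeq, with build GRCm39. No source used here gives the annotation, the strand setting or the role of each tool. In the main deposited table, each gene has its signal as normalised reads. In each library 100% of values were whole multiples of what a single read is worth (tolerance 0.01), so whole reads were recovered. The authors' deposited table of statistics gives a log2 fold change with its SE, a test score, a p-value and an adjusted p-value per gene, and was used only where named.

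Values were tested with limma 3.58.1 (R 4.3.3, with a trend) in two-sided tests on log2(value + 1) of 14079 genes with a mean of at least 10 over all libraries, with Benjamini-Hochberg adjustment over these genes and a threshold of 0.05. Fold changes on this scale understate changes of low genes. edgeR 4.0.16 and DESeq2 1.42.0 on the recovered reads, other pseudocounts, filters and scalings, the replicate block and leaving out each library served as alternatives. Running edgeR and DESeq2 without control replicate 1 was chosen after seeing the data. The limma test was also run on simulated counts with known fold changes. These were drawn without an outlying library, so they do not cover a case such as control replicate 1. The members and gene lists were chosen with earlier results of these data known. All 10 members are named, with the 3 genes of lowest p per list, Trp53, Mdm4, Cdkn2a and the 3 genes most like Cdkn1a, Mdm2 and Ccng1. No exon of a member overlapped another listed gene in GENCODE M21. That annotation was used only for lengths and exon overlaps, because its build differs from GRCm39.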

Additional observations from a re-analysis of the deposited data

How the results depend on the processing

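With all 6 libraries limma called 0 genes, and also 0 with a replicate block. Same-numbered libraries deviated together weakly or not at all (correlations 0.13, 0.07 and -0.03). Control replicates 1 and 2 correlated best with their own number, and control replicate 3 with FL-ApoE4 replicate 2 (0.16). No label says that the numbers mark pairs, and they were not taken as pairs. DESeq2 called 390 genes, edgeR and DESeq2 without control replicate 1 called 691 and 959, and limma without a filter called 1. Leaving out each library gave 0 to 651 genes and 0 to 1 members. Of the 10 members, 1 (Cdkn1a) was called by edgeR and by DESeq2 without control replicate 1, at log2 fold changes of -0.61 and -0.62, and leaving out single libraries gave it -1.16 to -0.61. For targets shared with ATF4 or CHOP, DESeq2 called 4 with all libraries, and both tools called 4 without control replicate 1, where leaving out single libraries gave 0 to 4; the median was -1.22 with a minimum mean of 50. For growth arrest targets DESeq2 called 2, and without control replicate 1 edgeR called 4 and DESeq2 5 (0 to 4 by limma). DESeq2 without control replicate 1 called 1 apoptosis target. In metabolism and autophagy edgeR and DESeq2 each called 2 there (0 to 2 by limma). Of genes repressed through p21, DESeq2 called 1 with all libraries and 3 without control replicate 1. Directions turned for members near 0: Phlda3 (0.0088 by DESeq2, 0.018 by edgeR, 0.0054 with quantile scaling, -0.27 to 0.18 leaving out libraries), Aen (0.0017 by DESeq2 and 0.0073 by edgeR without control replicate 1, -0.057 to 0.025 leaving out libraries), Trp53inp1 (0.080 and 0.085, and -0.29 to 0.10) and Bax (-0.043 to 0.056). Medians moved with libraries left out: members -0.085 to 0.022, apoptosis -0.045 to 0.013, DNA repair -0.044 to 0.026, metabolism and autophagy -0.0079 to 0.067, p21-repressed genes -0.12 to -0.064. Without control replicate 1, DESeq2 and edgeR gave medians of -0.049 and -0.043 (DNA repair), -0.010 and -0.0046 (metabolism and autophagy) and -0.12 and -0.12 (p21-repressed genes). There edgeR gave 0.018 for apoptosis, and with all libraries quantile scaling gave -0.071 for p21-repressed genes. The causes of these shifts were not tested. Phlda3 and Trp53inp1 had the fewest reads of the members, 9 to 19 and 43 to 65 per library, which limits what their values show.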
